A study of Homo sapiens with 24 samples.

Results

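PGR encodes the progesterone receptor, and its locus was described here by chromatin accessibility in T47D cells, a cell line from a human breast tumour with luminal features and the estrogen receptor. Members were all peaks of the deposited table whose midpoint lay within 250 kb of the PGR interval, which spans chr11:101029624-101129813 in hg38 (100190 bp, minus strand). The rule found 115 of 189403 peaks, and it used position only. The PGR gene held 43 of them in its body and 1 at its annotated start. A further 34 lay upstream of the start, 10 lay between the far end of PGR and the neighbouring gene ARHGAP42, and 27 lay in ARHGAP42 itself.

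The progesterone receptor is a nuclear hormone receptor that binds progestins and regulates transcription. Estradiol activates the estrogen receptor, a transcription factor that binds DNA at promoters and at distant enhancers, and PGR is a textbook target of it in breast cells. For this reason progesterone receptor staining is read in breast tumours as a sign of a working estrogen receptor. ATAC-seq measures accessibility through the Tn5 transposase, which inserts adapters into open chromatin, so a peak count rises with how often its DNA was open to the enzyme.

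Each of 6 groups had 4 libraries. The complete-medium groups stood for 1 day in RPMI with 10% serum and received for 1 h 100 nM fulvestrant, 100 nM raloxifene, 100 nM tamoxifen or vehicle (0.1% DMSO). The starved groups stood for 3 days in medium free of phenol red with 10% charcoal-stripped serum, and received for 1 h 1 nM beta estradiol or the same vehicle. The labels also give different seeding densities for complete and starved cells, so medium, days and density cannot be told apart between the media. Whether replicates were separate cultures is not stated in the labels, so the spread behind the p-values may be technical.

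Library depth differed and bears on several values below. Counts in all peaks ran from 434598 (fulvestrant replicate 4) to 12140005, the second lowest being 2422981 (starved vehicle replicate 3). The members received 215 and 890 counts in these shallow libraries and up to 6703 elsewhere, and 47 and 25 of the 115 members had no count there. In fulvestrant replicate 4 a single count was worth 1.57 CPM (a count divided by the scaled total of its library), and 3 counts, the limit that a count of 0 allows, were worth 4.71 CPM. For replicates 3 and 4 of complete-medium vehicle the labels conflict, the treatment field naming fulvestrant and the title DMSO, and both were kept as vehicle. As a check of the cell type, all 5 luminal genes with a start in the table used had a peak within 1 kb, with means over libraries of 1.45 CPM (ESR1) to 75.7 CPM (ELF3). Of the basal and mesenchymal genes, 3 of 5 had such a peak (1.31 to 6.49 CPM), and PTPRC, the only blood gene with a start there, had none.

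The promoter sequence is shown because its peak is the member at the gene's start, to be set beside the distal members. The 250 bases before the first annotated PGR start were taken from RefSeq (GRCh38.p14), chr11:101129814-101130063 on the minus strand, 5′ to 3′, and the capitals mark the 92 bases that lie inside the promoter peak.
PGR promoter: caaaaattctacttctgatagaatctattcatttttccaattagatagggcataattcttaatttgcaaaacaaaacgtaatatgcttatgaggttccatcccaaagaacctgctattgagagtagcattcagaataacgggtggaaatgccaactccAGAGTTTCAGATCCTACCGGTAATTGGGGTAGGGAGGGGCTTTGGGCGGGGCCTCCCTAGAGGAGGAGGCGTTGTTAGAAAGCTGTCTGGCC
RefSeq lists 3 starts for PGR, the others 736 and 750 bp further into the gene. These lay 600 and 614 bp from the edge of the promoter peak, and no other peak covered them.

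Motifs were counted on both strands in windows from 250 bases before to 50 bases after a start. The palindromic estrogen response element, GGTCA and TGACC with 3 bases between them, matched in none of the 3 PGR windows and in 0.057% of 35116 promoter windows. Its single arm GGTCA, which the full element contains, matched 0 times at the first start and 1 time at each of the others, and in 37.4% of all windows. Neither the AP-1 motif TGANTCA (7.71% of windows) nor the forkhead motif TGTTTAC (3.42%) matched at any of the starts. The GC box GGGCGG, a motif of Sp family factors, matched once at the first start, 49 bases before it and inside the peak, and 2 and 4 times at the others, while 45% of windows hold it. The windows of these other starts overlap, share their GGTCA site and have 2 GC boxes in common. A match is a description of letters, and the absence of one says only that these letters are not in this window. Sequences of the distal peaks were not used here.

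Estradiol raised accessibility at distal sites of the PGR locus within 1 h and lowered it at none that passed the test. Of the 115 members, 95 passed the filter on low counts (156745 of 189403 peaks passed overall), and the 20 others held 11 to 128 counts over all libraries. With estradiol over starved vehicle, 10 of the 95 members rose and 0 fell, which is 10.5% of them, against a background of 0.813% rising and 0.0223% falling among all tested peaks (edgeR quasi-likelihood test, Benjamini-Hochberg adjusted p under 0.05 over all tested peaks). No member lay below 0 at an unadjusted p under 0.05 in edgeR (0 of 95) or in DESeq2. At an unadjusted p under 0.05 stood 41 members, or 43.2%, against 6% of all tested peaks. The median log2 fold change was 0.49 over the 95 members and -0.01 over all tested peaks, and 84 of the 95 members lay above 0.

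The 10 rises were spread from 142 kb downstream to 225 kb upstream of the start. Upstream of PGR 5 of 30 tested members rose, in the gene body 3 of 34, between the genes 1 of 8 and in ARHGAP42 1 of 22. The number was 9 with DESeq2, 5 without starved vehicle replicate 1, 6 without estradiol replicate 3, and 6 both in replicates 1 and 2 alone and in replicates 3 and 4 alone. The calls for 4 members were kept under every alternative setting and with every single library left out. These are the peaks 169.6, 207 and 213 kb upstream and the one 95.5 kb into the gene.

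**Figure D1:**
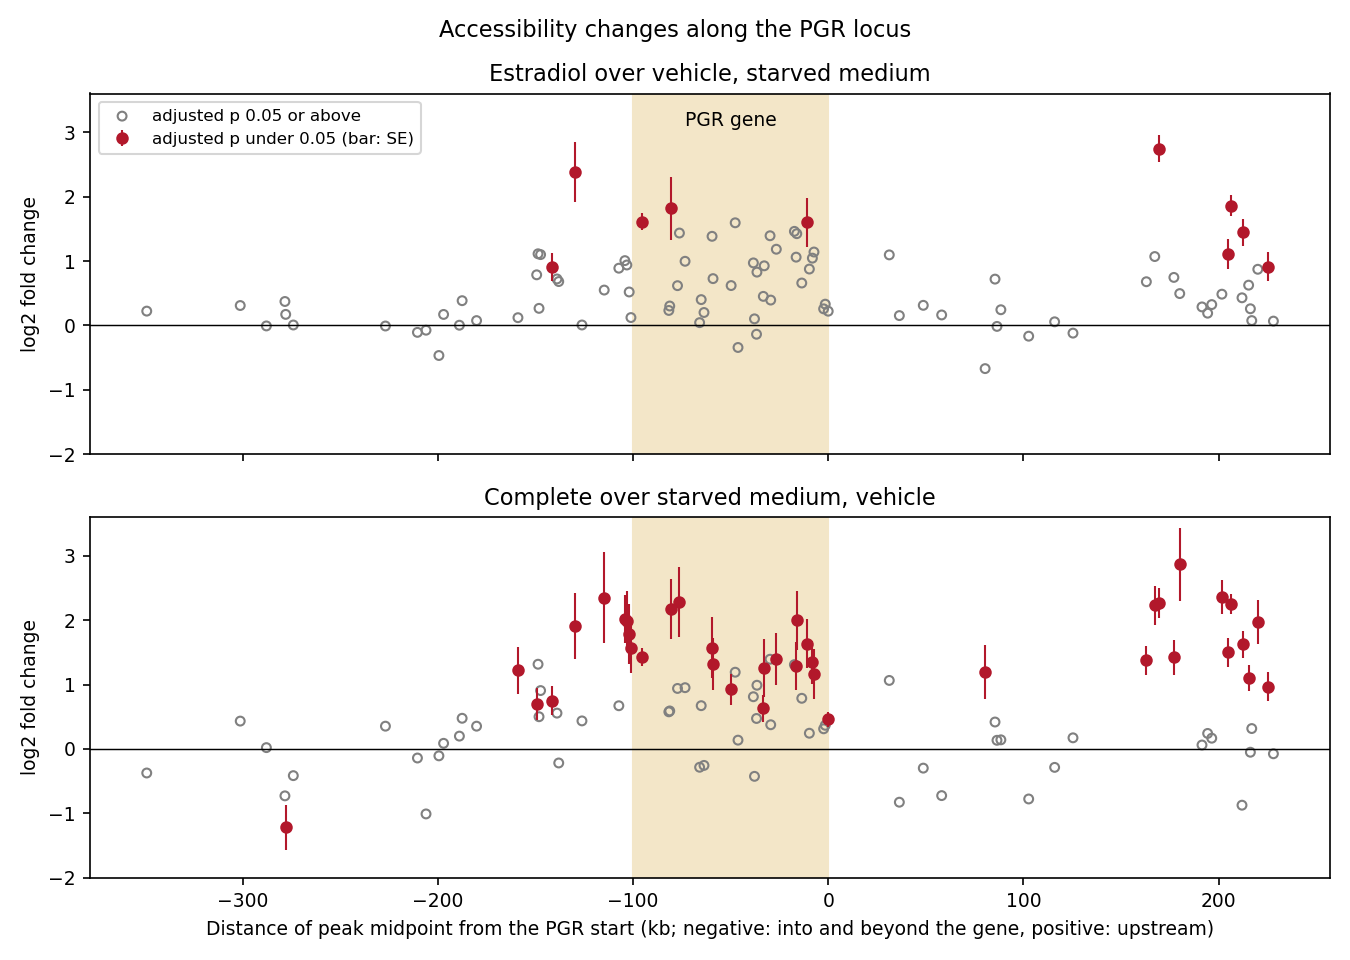
Log2 fold change of each tested member peak (y axis) against the distance of its midpoint from the PGR start in kb (x axis; negative values run into and past the gene), for estradiol over starved vehicle (top) and complete over starved vehicle (bottom). Filled points passed the test and carry their SE; 10 filled points lie above 0 in the top panel, and 37 above and 1 below 0 in the bottom panel.

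The steepest rise lay 169.6 kb upstream of PGR, at chr11:101299278-101299575. Its libraries, in the order of replicates 1 to 4, stood at 18.9, 18.2, 21.8 and 19.4 CPM with estradiol and at 2.65, 2.74, 6.82 and 2.37 CPM with starved vehicle. All estradiol libraries lay above all vehicle libraries, the closest vehicle value being that of the shallow replicate 3. The log2 fold change was 2.74 (SE 0.212, edgeR adjusted p = 6.94e-16). In complete medium the vehicle libraries stood at 17.1, 13.4, 12.2 and 13.7 CPM, so this peak was higher in estradiol-treated starved cells than in complete medium, by 0.48 on the log2 scale (edgeR adjusted p = 0.0142). That last call was lost in replicates 1 and 2 alone (0.27), without the vehicle libraries of conflicting labels (0.36), without complete vehicle replicate 3 (0.40), without estradiol replicate 3 (0.41) and in DESeq2 (0.50).

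A long noncoding RNA gene, LOC105369458, lies upstream of PGR and held 8 of the members. The peak at chr11:101336234-101336540, 207 kb upstream, stood at 19.9, 24.6, 29.9 and 27.0 CPM with estradiol and at 5.30, 6.22, 5.21 and 9.56 CPM with starved vehicle. The groups did not overlap, and the log2 fold change was 1.86 (SE 0.157, edgeR adjusted p = 9.86e-15). Complete-medium vehicle libraries reached 32.9, 30.5, 35.4 and 35.8 CPM, all above the estradiol libraries. Estradiol-treated starved cells stood lower than complete medium by -0.39 on the log2 scale (edgeR adjusted p = 0.00889), a call lost in replicates 3 and 4 alone (-0.28), without the vehicle libraries of conflicting labels (-0.31) and without estradiol replicate 1 (-0.28).

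Further members in the same lncRNA interval also rose. At chr11:101342429-101342644, 213 kb upstream, libraries stood at 8.38, 9.91, 11.7 and 9.90 CPM with estradiol and at 3.34, 3.61, 2.81 and 4.28 CPM with starved vehicle. The groups did not overlap (log2 fold change 1.45, SE 0.211, edgeR adjusted p = 8.06e-07). At chr11:101334584-101334812, 205 kb upstream, the values were 13.3, 19.8, 21.4 and 15.04 CPM with estradiol and 6.8, 8.70, 6.82 and 9.37 CPM with starved vehicle. These groups were also apart (1.11, SE 0.235, edgeR adjusted p = 0.0103).

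Inside the PGR gene the clearest rise lay near its far end. The peak at chr11:101034171-101034404, 95.5 kb downstream of the start, stood at 39.3, 39.2, 36.8 and 42.4 CPM with estradiol and at 13.95, 10.2, 14.4 and 13.6 CPM with starved vehicle. No library of either group came near the other group. Its replicates varied little, and the log2 fold change of 1.61 had the smallest SE of the 10 rises (0.137, edgeR adjusted p = 1.48e-14). Complete-medium vehicle stood at 32.0, 34.8, 35.1 and 36.8 CPM, and the difference of estradiol-treated starved cells from it was 0.18 on the log2 scale (95% interval -0.04 to 0.40, edgeR adjusted p = 0.278).

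The other members that rose were shallower or varied more. In the gene body, chr11:101119018-101119284 (10.7 kb downstream) held 14, 27, 51 and 17 counts with estradiol and 2, 13, 2 and 12 counts with starved vehicle, which gave 1.60 as log2 fold change (SE 0.378, edgeR adjusted p = 0.00975). At chr11:101049168-101049568 (80.4 kb downstream) there were 6, 18, 25 and 13 counts with estradiol and 2, 3, 1 and 8 counts with starved vehicle. As CPM the groups did not overlap at this site (1.82, SE 0.488, edgeR adjusted p = 0.0433), and 12 alternatives lost the call. Between the genes, chr11:100999772-100999996 (129.9 kb downstream) stood at 2.63, 4.48, 2.21 and 2.06 CPM with estradiol and at 0.346, 0.622, 2.01 and 0.273 CPM with starved vehicle. The nearest vehicle value, from the shallow replicate 3, rests on 5 counts (2.39, SE 0.467, edgeR adjusted p = 0.000562).

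Farthest upstream, chr11:101354767-101355064 (225 kb) stood at 8.13, 6.39, 9.44 and 9.52 CPM with estradiol and at 3.23, 3.85, 2.81 and 6.28 CPM with starved vehicle. The lowest estradiol and the highest vehicle library nearly met (log2 fold change 0.91, SE 0.222, edgeR adjusted p = 0.0143). In ARHGAP42, chr11:100988101-100988342 (142 kb downstream) stood at 7.26, 11.5, 14.03 and 12.7 CPM with estradiol and at 4.84, 7.34, 4.41 and 6.83 CPM with starved vehicle. Here the groups overlapped by 1 library (0.91, SE 0.215, edgeR adjusted p = 0.0152).

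The promoter was open in every group and differed little with estradiol. Its peak, chr11:101129677-101129905, also lies in the interval of PGR-AS1, and ATAC counts do not tell strands apart. It stood at 37.7, 30.6, 35.2 and 34.7 CPM with estradiol and at 30.1, 30.6, 24.5 and 30.0 CPM with starved vehicle. The lowest estradiol library lay just above the highest vehicle library. The log2 fold change was 0.22 (95% interval -0.01 to 0.45, edgeR adjusted p = 0.858), so a rise of the size seen at the distal peaks lies outside its interval. Complete-medium vehicle stood at 44.3, 36.7, 47.02 and 33.0 CPM, higher than starved vehicle by 0.46 (SE 0.113, edgeR adjusted p = 0.00172). Another peak among the 3 members with the highest mean CPM, 217 kb upstream at chr11:101346655-101346881, stood at 29.2, 31.3, 31.0 and 27.8 CPM with estradiol and at 29.5, 32.1, 22.1 and 26.6 CPM with starved vehicle. These groups overlapped (log2 fold change 0.08, edgeR adjusted p = 1).

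**Figure D2:**
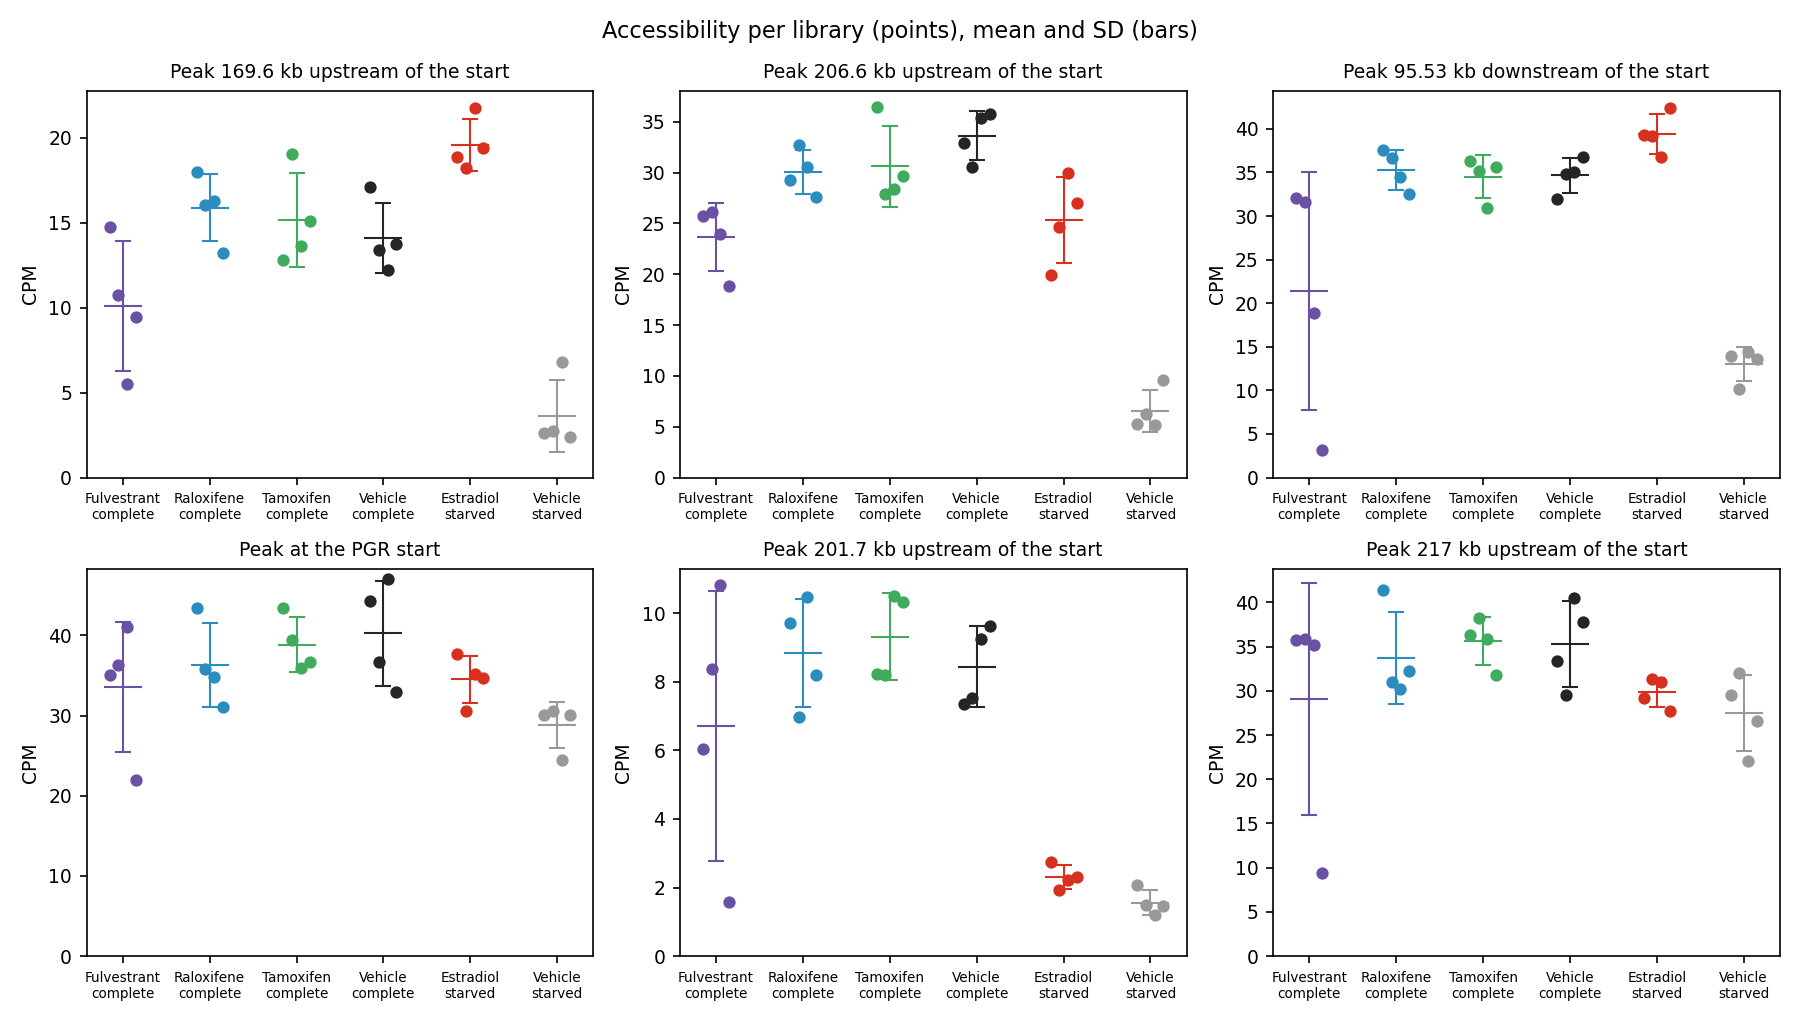
Accessibility in CPM (y axis) per library (points) with the mean and SD (bars) in the 6 groups, for the 3 member peaks with the smallest p for estradiol, the promoter peak, the peak 202 kb upstream and the peak 217 kb upstream. In the first 3 panels all estradiol libraries stand above all starved vehicle libraries, while at 202 kb upstream they reach no more than 2.75 CPM against at least 7.35 CPM with complete-medium vehicle.

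Complete medium differed from starved medium across a larger part of the locus. With vehicle in both, 37 of the 95 members (38.9%) were higher in complete medium and 1 was lower, against a background of 7.93% higher and 9.91% lower among all tested peaks. The median log2 fold change was 0.67 over the members and 0.02 over all tested peaks. The higher members had fold changes of 0.46 to 2.87 on the log2 scale, with a median of 1.50. Between PGR and ARHGAP42 6 of 8 tested members were higher, in the PGR body 14 of 34, upstream 13 of 30 and in ARHGAP42 3 of 22, and the promoter peak was higher too. In replicates 3 and 4 alone, 19 members were higher and 0 lower.

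The member that was lower in complete medium lies in ARHGAP42 at chr11:100851654-100851892. It stood at 0.865, 1.56, 1.85 and 1.31 CPM in complete medium and at 3.34, 4.60, 1.60 and 2.64 CPM in starved medium. The groups overlapped by 1 library, the shallow one with 4 counts (log2 fold change -1.22, SE 0.347, edgeR adjusted p = 0.00778). Alternatives gave 0 to 4 lower members.

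The media and the estradiol comparisons share the starved vehicle libraries, so their values are given side by side and no overlap is counted. The peak 169.6 kb upstream had a log2 fold change of 2.27 (SE 0.229) between the media and 2.74 with estradiol. For the peak 207 kb upstream the values were 2.25 (SE 0.152) and 1.86, and for the one 95.5 kb into the gene 1.43 (SE 0.141) and 1.61. The promoter peak had 0.46 and 0.22. Over the 10 members that rose with estradiol, the median was 1.63 between the media.

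Estradiol-treated starved cells were then set against complete-medium vehicle directly. Of the 95 members, 7 (7.37%) were higher and 14 (14.7%) lower in the estradiol-treated cells, against a background of 9.39% higher and 7.24% lower. The lower members had fold changes of -0.39 to -2.37 on the log2 scale. They were 5 of 8 between PGR and ARHGAP42, 8 of 30 upstream and 1 of 22 in ARHGAP42 in edgeR, while DESeq2 called 1, 7 and 1 there. In the PGR body 0 of 34 were lower in edgeR, with 1 below 0 at an unadjusted p under 0.05, and DESeq2 also called 0. The lower count was 8 without estradiol replicate 1, 6 without the vehicle libraries of conflicting labels, 2 in replicates 3 and 4 alone and 9 in DESeq2. The higher count was 4 without complete vehicle replicate 2 and 3 without the vehicle libraries of conflicting labels.

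The member with the smallest p there lies in the lncRNA interval at chr11:101331420-101331624, 202 kb upstream and close to peaks that rose. It stood at 2.75, 1.92, 2.21 and 2.31 CPM in estradiol-treated starved cells and at 7.35, 7.54, 9.26 and 9.63 CPM in complete-medium vehicle. Starved vehicle stood at 2.08, 1.49, 1.20 and 1.46 CPM, a range that overlapped with the estradiol libraries. The log2 fold change was -1.88 against complete medium (SE 0.230, edgeR adjusted p = 1.35e-09) and 0.49 against starved vehicle (95% interval -0.21 to 1.18, adjusted p = 0.996). Against complete medium it lay between -1.69 and -2.03 over the alternative settings, all past the threshold.

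Sums over the members of each stretch were set side by side for estradiol and both vehicle groups, and starved vehicle had the lowest mean of these in every stretch. In the PGR body the sum was 139.1 ± 11.2 CPM with estradiol and 82.0 ± 7.01 CPM with starved vehicle, while complete-medium vehicle had 140.1 ± 10.5 CPM (SD, n = 4 each). Between the genes it was 16.0 ± 2.88 CPM with estradiol and 9.67 ± 1.16 CPM with starved vehicle, and 22.9 ± 2.16 CPM with complete-medium vehicle. Neither pair of estradiol and starved vehicle sums overlapped. In ARHGAP42 the estradiol libraries stood at 84.9 ± 6.36 CPM, the starved vehicle ones at 70.6 ± 6.76 CPM and the complete-medium vehicle ones at 79.2 ± 8.87 CPM. Estradiol libraries of 78.4 to 92.1 CPM there stood against starved vehicle libraries of 61.7 to 77.8 CPM. Upstream of PGR the sum was 253.2 ± 23.8 CPM with estradiol, 171.4 ± 7.94 CPM with starved vehicle and 274.2 ± 18.3 CPM with complete-medium vehicle. At the promoter peak the means were 34.5, 28.8 and 40.25 CPM in the same order. These sums are descriptions without a test.

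**Figure D3:**
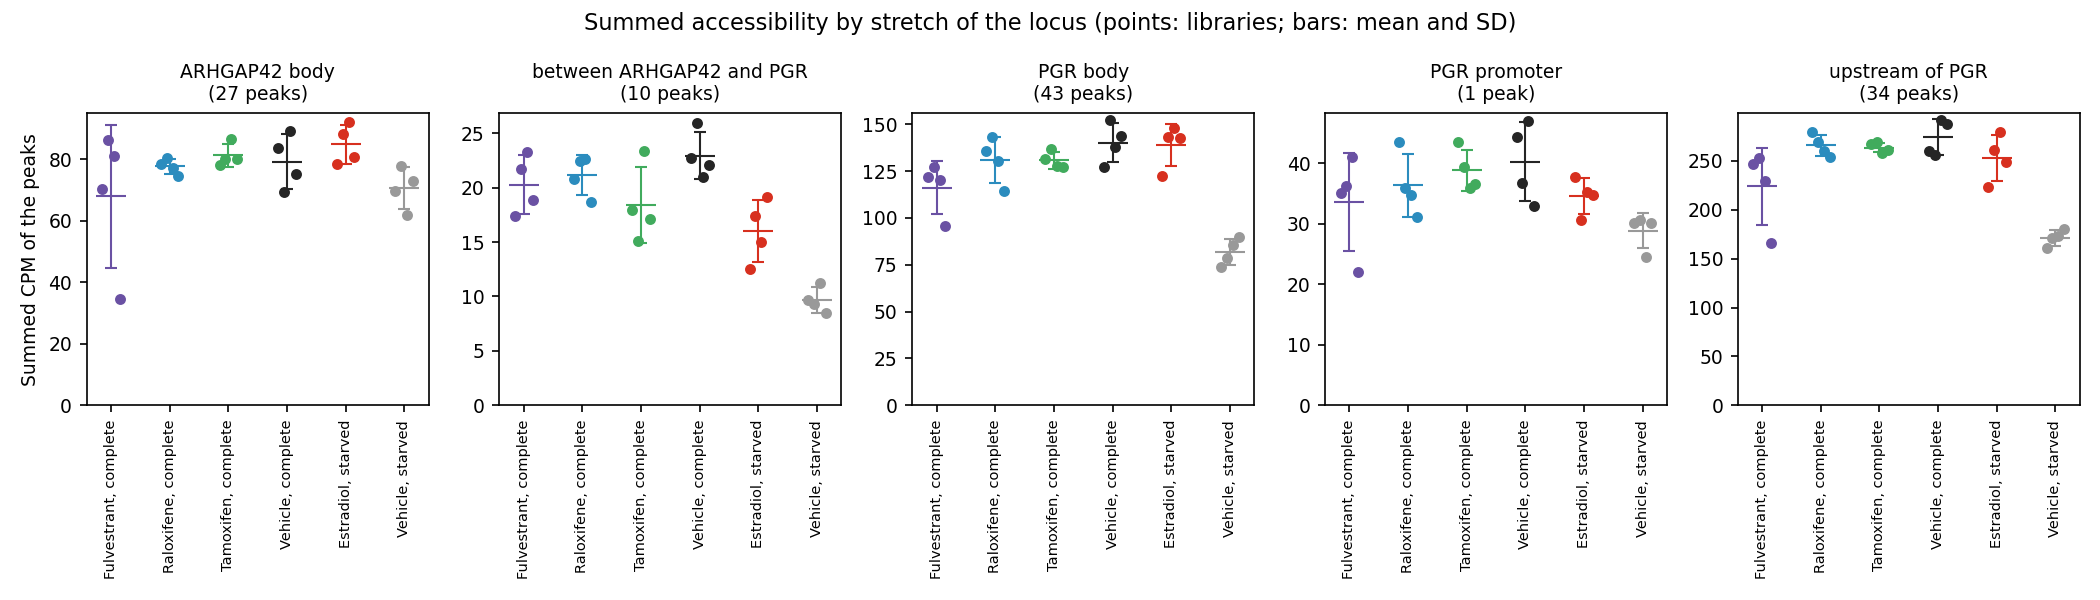
Summed CPM of all member peaks in each of 5 stretches of the locus (y axis, one panel each) per library (points), with the mean and SD (bars) in the 6 groups. Starved vehicle libraries lie at 74.0 to 89.6 CPM in the PGR body, below all other groups, and fulvestrant replicate 4 is the lowest point with antagonists in 4 of the panels.

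The 3 antagonists act on the estrogen receptor in different ways. Fulvestrant, built on the estradiol steroid with a long alkyl side chain, causes the receptor to be degraded. Raloxifene is a benzothiophene and tamoxifen a triphenylethylene, and both block or activate the receptor depending on the tissue. Against complete-medium vehicle, 0 members passed the test with fulvestrant, raloxifene or tamoxifen in edgeR, and DESeq2 also called 0. The background was 0% for fulvestrant and tamoxifen, and for raloxifene 0.000638% higher and 0% lower. At an unadjusted p under 0.05 stood 9, 3 and 7 members with fulvestrant, raloxifene and tamoxifen in edgeR, and 4, 2 and 5 in DESeq2. In edgeR these were 9.47%, 3.16% and 7.37% of the tested members, against 3.96%, 3.81% and 4.13% of all tested peaks. Median log2 fold changes of the members were -0.14, -0.06 and -0.05 in that order, and with fulvestrant 59 of 95 members lay below 0, with -0.01 the median of all tested peaks.

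The 10 members that rose with estradiol were chosen in starved libraries and can be read in the complete-medium ones. With fulvestrant 8 of the 10 lay below 0, with a median log2 fold change of -0.29 and a range of -0.51 to 0.22. With raloxifene 7 lay below 0 (median -0.10, range -0.55 to 0.18), and with tamoxifen also 7 (median -0.16, range -0.91 to 0.20). Leaving out a library moved the raloxifene median between -0.19 (without raloxifene replicate 2) and -0.027 (without raloxifene replicate 3). The tamoxifen median moved between -0.19 (without vehicle replicate 2) and -0.068 (without tamoxifen replicate 4), and the fulvestrant median between -0.36 and -0.20 (without fulvestrant replicates 1 and 3 in turn). In replicates 1 and 2 alone the medians were -0.27 with fulvestrant, -0.024 with raloxifene and -0.0015 with tamoxifen, and in replicates 3 and 4 alone -0.51, -0.37 and -0.31. The medians were not tested. In the fit of all 24 libraries, none of the 10 members passed for an antagonist after adjustment. The smallest edgeR adjusted p of any member in that fit was 0.9996 with fulvestrant and 1 with the others.

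The peak 207 kb upstream had the smallest unadjusted p of the members for fulvestrant. It stood at 25.7, 26.1, 23.99 and 18.8 CPM with fulvestrant, at 29.3, 32.7, 30.6 and 27.6 CPM with raloxifene, at 36.5, 27.9, 28.4 and 29.7 CPM with tamoxifen, and at 32.9, 30.5, 35.4 and 35.8 CPM with vehicle. All fulvestrant libraries lay below all vehicle libraries, the lowest being the shallow replicate 4 on 12 counts, whereas the raloxifene and tamoxifen libraries overlapped with vehicle. The log2 fold changes were -0.42 (95% interval -0.67 to -0.17, edgeR adjusted p = 0.9996) with fulvestrant, -0.16 (-0.38 to 0.06) with raloxifene and -0.13 (-0.36 to 0.09) with tamoxifen. Without both shallow libraries the fulvestrant value was -0.41, and without the vehicle libraries of conflicting labels -0.34.

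The peak 95.5 kb into the gene showed how far the fulvestrant values rest on single libraries. It stood at 32.1, 31.6, 18.9 and 3.14 CPM with fulvestrant and at 32.0, 34.8, 35.1 and 36.8 CPM with vehicle. Replicates 1 and 2 lay near the vehicle libraries, replicate 3 well below them, and replicate 4 at 2 counts. The log2 fold change was -0.32 (95% interval -0.58 to -0.07), -0.07 in replicates 1 and 2 alone and -1.10 in replicates 3 and 4 alone (edgeR adjusted p = 0.0496). That was the only member called for an antagonist under any alternative. The vehicle libraries of these replicates are those with conflicting labels, and fulvestrant replicate 4 is the shallow library. Over all replicates the value was -0.28 without fulvestrant replicate 4, -0.18 without fulvestrant replicate 3 and -0.27 without the vehicle libraries of conflicting labels.

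Other estradiol sites with a fulvestrant interval below 0 lay upstream. The peak 225 kb upstream stood at 5.21, 5.43, 9.16 and 3.14 CPM with fulvestrant and at 6.38, 7.02, 11.1 and 10.4 CPM with vehicle, and the groups overlapped (log2 fold change -0.51, 95% interval -0.95 to -0.07). The peak 213 kb upstream stood at 11.5, 6.78, 7.88 and 3.14 CPM with fulvestrant and at 10.9, 12.9, 9.98 and 12.6 CPM with vehicle. Replicate 1 lay among the vehicle libraries and the others below them (-0.36, 95% interval -0.72 to -0.0038). In the gene body, the peak 80.4 kb downstream showed another order, at 2.19, 2.47, 2.93 and 4.71 CPM with fulvestrant, 1.18, 0.630, 1.23 and 1.38 CPM with tamoxifen, and 2.27, 2.21, 1.54 and 2.77 CPM with vehicle. All tamoxifen libraries lay below all fulvestrant and vehicle libraries there, on 4 to 13 counts each (-0.91 against vehicle, 95% interval -1.66 to -0.16). The raloxifene libraries, at 2.07, 2.43, 0.698 and 1.23 CPM, overlapped with those of tamoxifen. The fulvestrant value of 4.71 CPM comes from the shallow replicate 4, on 3 counts.

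Over all 95 tested members the fulvestrant values ran from -0.96 to 1.27 on the log2 scale, those with raloxifene from -0.93 to 0.69 and those with tamoxifen from -1.46 to 1.05. The peak 202 kb upstream stood at 6.03, 8.38, 10.8 and 1.57 CPM with fulvestrant, the last on 1 count, and its log2 fold changes were -0.12 with fulvestrant, 0.07 with raloxifene and 0.16 with tamoxifen. The peak 217 kb upstream stood at 35.7, 35.9, 35.2 and 9.42 CPM with fulvestrant and at 33.4, 29.5, 40.5 and 37.8 CPM with vehicle. Its fulvestrant libraries lay within the vehicle range apart from the shallow replicate 4, which held 6 counts.

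For raloxifene and tamoxifen, the members with the smallest p lay elsewhere. The peak 220.1 kb upstream, chr11:101349797-101349997, stood at 2.17, 3.43, 2.21 and 2.46 CPM with raloxifene and at 3.57, 4.55, 3.601 and 4.82 CPM with vehicle. The groups did not overlap (log2 fold change -0.66, edgeR adjusted p = 1). The peak 31.3 kb upstream, chr11:101160958-101161217, stood at 0.131, 0.315, 0.819 and 0.426 CPM with tamoxifen and at 0.865, 1.04, 1.75 and 1.02 CPM with vehicle. These groups were apart as well, at very few counts (-1.46, edgeR adjusted p = 1).

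**Figure D4:**
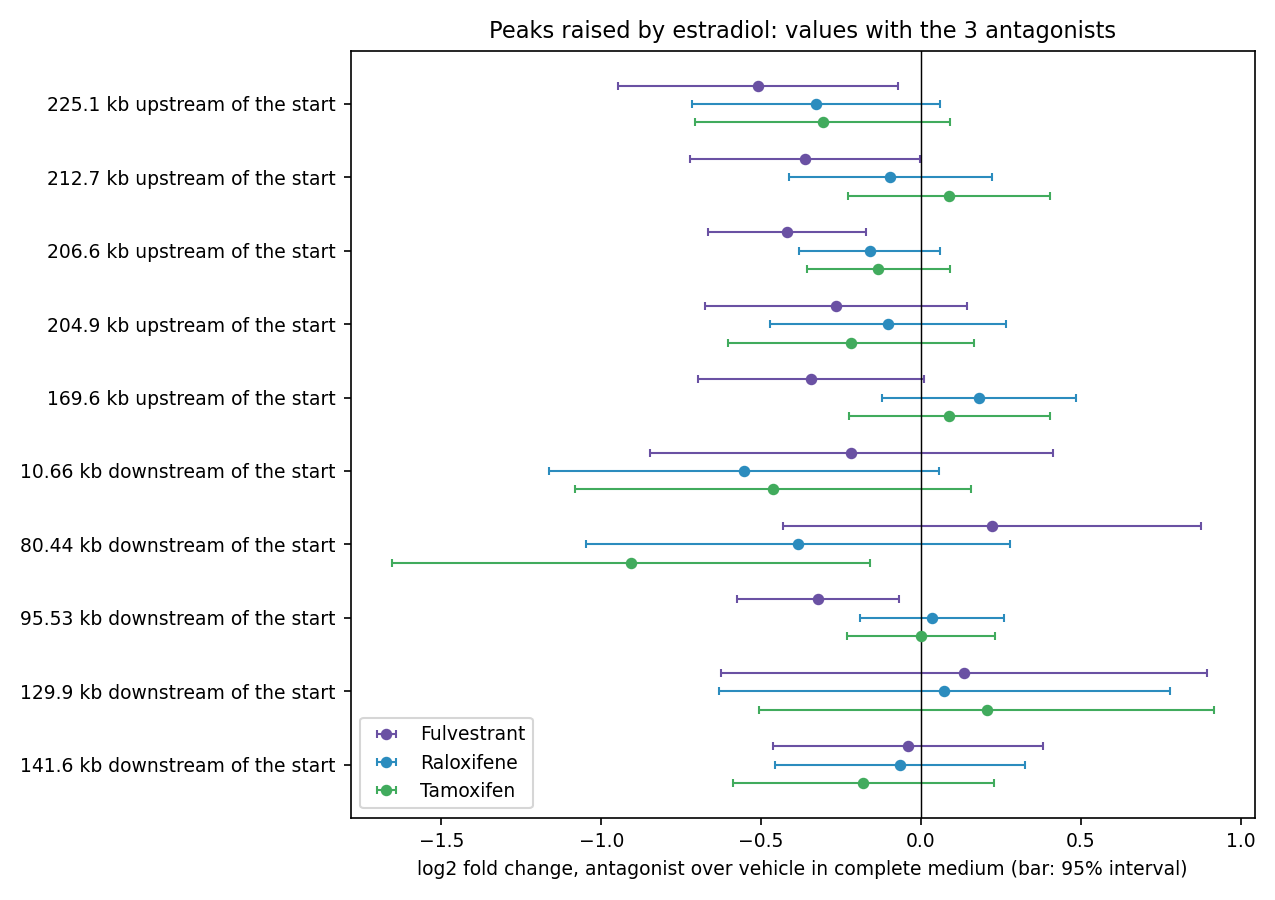
Log2 fold change of each antagonist over complete-medium vehicle (x axis, with 95% interval) at the 10 member peaks that rose with estradiol, ordered along the locus (y axis, distance from the PGR start in kb). No value passed the test after adjustment; with fulvestrant 8 of the 10 points lie below 0.

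The antagonists were compared with each other at the matched dose of 100 nM and time of 1 h, in 3 pairs. In each pair 0 members passed the test in edgeR and in DESeq2. The background was 0% in each direction, except 0.000638% lower with fulvestrant than with raloxifene. At an unadjusted p under 0.05 stood 9 members for fulvestrant against raloxifene, 10 for fulvestrant against tamoxifen and 4 for raloxifene against tamoxifen in edgeR, and 5, 9 and 1 in DESeq2. In edgeR these were 9.47%, 10.5% and 4.21% of the tested members, against 5.16%, 5.27% and 3.92% of all tested peaks. Over the 10 members that rose with estradiol, the median differences were -0.17, -0.14 and 0.01 on the log2 scale in the same order.

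Between the steroid fulvestrant and the benzothiophene raloxifene, the smallest unadjusted p of the members lay at the peak 169.6 kb upstream. It stood at 14.7, 10.7, 5.50 and 9.42 CPM with fulvestrant, at 18, 16.04, 16.3 and 13.2 CPM with raloxifene and at 12.8, 19.1, 13.6 and 15.1 CPM with tamoxifen. Fulvestrant and raloxifene overlapped by 1 library. The difference was -0.52 on the log2 scale (95% interval -0.87 to -0.18), and it did not pass adjustment over all peaks and 3 pairs (edgeR adjusted p = 0.997). Against tamoxifen, the triphenylethylene, fulvestrant differed by -0.43 (95% interval -0.79 to -0.08). Without fulvestrant replicate 1 these differences were -0.90 from raloxifene and -0.81 from tamoxifen, and without replicate 3 they were -0.32 and -0.23. At the peak 207 kb upstream the differences were -0.26 (-0.51 to -0.01) from raloxifene and -0.28 (-0.54 to -0.03) from tamoxifen. As TMM-scaled CPM, all fulvestrant libraries lay below those of either. The lowest, at 18.8 CPM, is the shallow replicate 4, on 12 counts and with a TMM factor of 1.558. Its place below the raloxifene and tamoxifen libraries therefore depends on the scaling.

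Raloxifene and tamoxifen, at the same peak 207 kb upstream, differed by -0.03 (95% interval -0.25 to 0.20). The smallest unadjusted p of this pair lay at the sparse peak 31.3 kb upstream (1.87, 95% interval 0.83 to 2.91, edgeR adjusted p = 0.997 over the pairs). At the promoter, the values against vehicle were -0.16 with fulvestrant, -0.16 with raloxifene and -0.07 with tamoxifen. The promoter libraries stood at 35.0, 36.3, 41.03 and 21.99 CPM with fulvestrant, 43.5, 35.8, 34.8 and 31.1 CPM with raloxifene, and 43.4, 39.4, 35.9 and 36.6 CPM with tamoxifen. All 3 groups overlapped with the vehicle libraries.

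Summed over all 115 members, the libraries stood at 490.8, 524.2, 495.4 and 337.6 CPM with fulvestrant. Raloxifene had 532.0 ± 29.6 CPM, tamoxifen 533.0 ± 8.01 CPM and complete-medium vehicle 556.7 ± 22.6 CPM (SD, n = 4 each). The lowest fulvestrant library is the shallow one, and with scaling by total counts it stood at 525.9 CPM. In starved medium the sums were 527.7 ± 40.0 CPM with estradiol and 362.4 ± 15.5 CPM with vehicle.

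The same distance rule was applied to other genes. Around 20 estrogen-induced genes, 71 of 1237 tested peaks (5.74%) rose with estradiol, against 0.813% of all tested peaks. Both totals add up the genes, so a peak shared by overlapping windows, such as those of RARA and IGFBP4, was counted for each gene. At least 1 rise lay at 19 of the 20 genes, BCL2 being the exception. The largest numbers were 11 of 93 at GREB1, a coactivator of the estrogen receptor, and 10 each at RARA, a retinoic acid receptor gene, and IGFBP4, an IGF binding protein gene, whose windows overlap. PGR, with 10 of 95, stands among these. The estrogen receptor genes ESR1 and ESR2 had 3 of 75 and 3 of 46. Around 10 progestin-responsive genes, a list of genes known to answer to the progesterone receptor or its relatives, 5 of 533 (0.938%) rose. That share is close to the 0.813% of all tested peaks. The rises were 2 each at FKBP5 and ZBTB16 and 1 at SGK1.

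Accessibility over the PGR interval (35 tested peaks) was also set against that over each of 7891 genes with at least 3 tested peaks. The likeness is Pearson's r of log2 CPM over the 24 libraries, which share groups and depth, and its median over genes was 0.26. The 5 most alike were GREB1 (0.94), TEX36 (0.93), ECE1, the gene of endothelin-converting enzyme (0.90), IGFBP4 (0.90) and ERICH3 (0.90). GREB1 averaged 275.5 CPM with estradiol and 142.2 CPM with starved vehicle, where PGR averaged 169.0 and 108.3 CPM. In complete medium PGR stood at 152.5, 158.7, 155 and 106.8 CPM with fulvestrant, the last being the shallow library, and averaged 161.7 CPM with raloxifene, 164.8 CPM with tamoxifen and 173.9 CPM with vehicle. GREB1 averaged 257.9 CPM with fulvestrant, the shallow library included, 322.5 CPM with raloxifene, 330.4 CPM with tamoxifen and 342.9 CPM with vehicle.

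With estradiol over starved vehicle, values were also read at the edges of the window, without a test. The outermost member on the ARHGAP42 side, 249 kb from PGR, had a log2 fold change of 0.22, and the next peak outside, at 252.3 kb, had -0.0017. On the upstream side the outermost member, at 228 kb, had 0.07, and the next peak outside, at 253 kb, had -0.38.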

How the data were processed

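The authors deposited unnormalized counts, of reads or of fragments, for the same peaks in each library. Trimming with cutadapt 1.8.1, alignment with Bowtie2 2.4.4, SAMtools 1.9 and build hg38 come from the submitters' processing notes. The peak caller, counting tool, duplicate handling and any Tn5 shift were not given in the sources used, nor was whether peak starts count from 0 or 1. Samples were grouped by title. No column or library was left out. Chi-square per degree of freedom was 1.74 to 4.23 in the 36 within-group pairs of libraries, above sampling noise in each. With raloxifene, tamoxifen and estradiol, replicates 1 and 2, and 3 and 4, were closest (1.75 to 1.89, against 1.99 to 2.40 in the remaining pairs). The other groups did not show this for both pairs. Its cause was not tested, and the main fit had no term for it.

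Group means were fitted with edgeR 4.0.16 in R 4.3.3 to the 24 libraries at once, after TMM scaling and filterByExpr (minimum count 10, minimum total 15), over the whole table. Contrasts were tested two-sided by quasi-likelihood, adjusted by Benjamini-Hochberg over the 156745 tested peaks at 0.05; pairs of antagonists were also adjusted over the 3 pairs together. The SE is the log2 fold change over the root of F. CPM uses TMM-scaled totals, and floors on counts cover counting error only. Intervals of log2 fold changes come from the fit and include the spread between libraries. Fitted values weigh libraries by depth. Likeness used CPM plus 0.1. Promoter sequences and starts are from RefSeq (GRCh38.p14).

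Peaks given per library are the members called with estradiol, the one nearest the start, the 3 of highest mean CPM, and the one with the smallest p in each other comparison with a vehicle. The members, lists, motifs and alternatives were chosen with earlier results of these data known. The peak lower in complete medium was named after its values were seen. The procedure was tested on simulated data. Alternatives were RLE factors, total counts, no filter, only the compared groups, a replicate block, the set of replicates (1 and 2, 3 and 4) as a term or alone, edgeR's older fit, DESeq2 1.42.0, and leaving out libraries.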

Additional observations from a re-analysis of the deposited data

Results flagged for a closer look

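A library stood far from the other 3 of its group for 5 of the 96 sets of values examined, and chance gives about 1 in 20. All 5 come from the shallow libraries.

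With starved vehicle, replicate 3 stood at 6.82 CPM against 2.37 to 2.74 CPM in the others at chr11:101299278-101299575, the peak that rose most with estradiol. At the promoter peak, chr11:101129677-101129905, it stood at 24.5 CPM against 30.0 to 30.6 CPM. At chr11:101349797-101349997 it stood at 2.01 CPM against 0.807 to 1.00 CPM, and at chr11:101160958-101161217 at 0 CPM against 0.576 to 0.637 CPM. A single count was worth 0.401 CPM in this library, and a count of 0 allows up to 1.20 CPM. With fulvestrant, replicate 4 stood at 9.42 CPM against 35.2 to 35.9 CPM in the others at chr11:101346655-101346881, on 6 counts.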

How the results depend on the processing

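The count of members higher with estradiol was 6 in replicates 1 and 2 alone and 6 in replicates 3 and 4 alone, and 5 to 11 with a library left out. Members higher in complete medium were 19 in replicates 3 and 4 alone. Members lower there were 4 with RLE factors, a set term or only the compared groups, 3 with total counts or replicates 1 and 2 alone, 0 in replicates 3 and 4 alone, 2 without the conflicting labels or without both shallow libraries, and 1 to 2 with a library left out. Between estradiol-treated and complete-medium cells, members higher were 4 and 3 in these sets, 3 without the conflicting labels and 4 to 8 with a library left out, and members lower 2 in replicates 3 and 4 alone, 6 without the conflicting labels, 9 in DESeq2 and 8 to 13 with a library left out. Members lower with fulvestrant were 1 in replicates 3 and 4 alone. The summed level with tamoxifen was 524.0 CPM with RLE factors, 516.8 with total counts and 523.8 without members under the filter. In each case the cause was not tested.

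The main fit did not treat same-numbered libraries as pairs. Their deviations from the group means, over all tested peaks, correlated at 0.034 to 0.126 for estradiol and -0.015 to 0.113 between the media. Counting noise lowers such correlations, so they cannot settle whether the libraries were paired. With the replicate number as a block, 10 members rose with estradiol, 4 were lower in complete than in starved medium, and 16 were lower in estradiol-treated than in complete-medium cells.

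Values near 0 changed sign. Estradiol over starved vehicle gave -0.017 at chr11:101346655-101346881 in replicates 1 and 2 alone. Against complete medium, estradiol-treated cells gave 0.017 at chr11:101342429-101342644 and 0.48 at chr11:101119018-101119284 in replicates 3 and 4 alone, and -0.056 at chr11:100999772-100999996 without the conflicting labels. At chr11:101354767-101355064 they gave 0.11 in replicates 1 and 2 alone and 0.33 without the conflicting labels. Raloxifene over vehicle gave -0.10 at chr11:101034171-101034404 in replicates 3 and 4 alone. Tamoxifen gave there 0.012 without a filter, 0.0030 with the set term, 0.097 in replicates 1 and 2 alone and 0.056 without the conflicting labels. It gave -0.030 at chr11:101299278-101299575 without the conflicting labels, and 0.026 at chr11:101336234-101336540 and 0.022 at chr11:101129677-101129905 in replicates 1 and 2 alone. With a library left out, the ranges were -0.0037 to 0.069 for raloxifene and -0.033 to 0.046 for tamoxifen at chr11:101034171-101034404. For tamoxifen they were -0.15 to 0.018 at chr11:101129677-101129905 and -0.032 to 0.21 at chr11:101299278-101299575. For estradiol-treated against complete-medium cells they were -0.39 to 0.13 at chr11:101119018-101119284 and -0.17 to 0.11 at chr11:101354767-101355064.

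Fulvestrant replicate 4 holds 215 counts over the members. At the peak 169.6 kb upstream the fulvestrant value was -0.34 without it, -0.72 without replicate 1 and -0.14 without replicate 3.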
